A study of Arabidopsis thaliana with 9 samples.

Results

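Class III peroxidases are secreted heme enzymes of plants. With hydrogen peroxide they oxidise phenolic compounds and wall proteins, which cross-links lignin, suberin and extensins and stiffens the cell wall, and in another reaction cycle they release reactive oxygen species that can loosen it. In roots, members of the family act in root hair growth, in the lignin of the Casparian strip in the endodermis, and in the balance of reactive oxygen species between dividing and elongating cells, where the bHLH repressor UPB1 restrains peroxidase genes. The 60 genes described here were taken from a list of family members by locus, chosen with earlier results of these data known. Of these, 43 were each on a probe set of their own, 6 were on 3 probe sets that each serve a neighbouring pair, and 11 were on no probe set that the probe table names. The 11 were AT1G05240, AT1G05250, RCI3 (AT1G05260), PER4 (AT1G14540), AT3G32980, PRXCA (AT3G49110), PRXCB (AT3G49120), PA2 (AT5G06720), RHS18 (AT5G22410), PER64 (AT5G42180) and RHS19 (AT5G67400), and they were not analysed here. All arrays together held 22746 probe sets, of which 14117 were tested.

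RNA came from whole roots of Arabidopsis thaliana seedlings at day 7 after germination and was hybridised to ATH1 arrays, 1 array per sample. All 9 samples carried ga1-3, a mutation in the gibberellin synthesis gene GA1, so every comparison was made in roots short of gibberellin. The groups were ga1-3 alone, the double mutant ga1-3 scl3-1, in which the gene of the GRAS protein SCL3 is mutated, and an SCL3 overexpressor in the same background (ga1-3 SCL3 OE), with 3 biological replicates each. The promoter that drives SCL3 and the number of independent transgenic lines are not given in the sources used here. Neither SCL3 nor GA1 was on a named probe set, so the manipulated genes could not check the labels.

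Values are MAS5 signals, a brightness per probe set on a linear scale, and changes are differences of mean log2 signal with the standard error (SE) of a limma model over all 9 arrays. A probe set was tested if its signal reached the 40th percentile of the array (105.9 on average) on 3 or more arrays, and called at an adjusted p under 0.05. The 99th percentile of signal was 8374 to 9087 on the SCL3 OE arrays and 5846 to 6649 on the other 6, while medians were 183 to 185 and 190 to 204. SCL3 OE thus had a brighter upper end, which bears on the brightest genes below. Of the cell type markers chosen to check the tissue, 3 of 6 for root hair cells and 2 of 2 for cortex were measured, and those for endodermis, stele and root in general were on no named probe set. The leaf genes RCA and LHCB4.1 had signals of 577 to 1284 on all arrays. In SCL3 OE against ga1-3, RCA was higher (log2 change 0.32, adjusted p = 0.0211) and LHCB4.1 lower (-0.51, adjusted p = 0.00405), and what part shoot RNA had in the results was not tested.

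Of the 43 genes on a probe set of their own, 36 were tested, and 30 of them lay above the filter on all 9 arrays. The other 7 (AT1G14550, AT1G24110, AT3G03670, AT3G50990, AT4G17690, PRX52, AT5G06730) had signals between 1.2 and 104, near the dim end of the arrays, and no change is given for them. AT1G34510 was the only tested gene that passed the filter through arrays of the ga1-3 and scl3-1 groups alone, so its level in SCL3 OE is near the dim end as well. Replicates were close: the median coefficient of variation over the 36 genes was 8.31% for ga1-3 arrays, 9.22% for scl3-1 and 7.27% for SCL3 OE, and the largest was 22.4% (PRX25, AT2G41480, in scl3-1).

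Loss of SCL3 was compared with ga1-3 to ask what the gene does in roots short of gibberellin. Of the 36 tested peroxidase genes 1 (2.78%) rose and 0 fell by limma, with 6 at an unadjusted p under 0.05. Over all tested probe sets 0.538% were called, 0.368% higher and 0.17% lower, and 10.7% had an unadjusted p under 0.05. The gene that rose was AT5G19890. Its ga1-3 arrays gave signals of 468, 453 and 479, its scl3-1 arrays gave 692, 925 and 884, and its SCL3 OE arrays gave 141, 163 and 154. The 3 groups did not overlap, with scl3-1 the highest and SCL3 OE the lowest. The gene rose 1.77-fold in scl3-1 (log2 change 0.83, SE 0.12, adjusted p = 0.0112) and fell by 1.61 on the log2 scale in SCL3 OE (SE 0.12, adjusted p = 1.26e-07). Both changes share the ga1-3 arrays. The direct difference between SCL3 OE and scl3-1 was -2.44 (SE 0.12, adjusted p = 2.52e-09). The call in scl3-1 ended without ga1-3 replicate 2 (adjusted p = 0.0629) or without scl3-1 replicate 2 (adjusted p = 0.11).

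The remaining 35 genes changed by -0.58 to 0.40 on the log2 scale in scl3-1 without passing, the smallest adjusted p being 0.144. The largest of these shifts belonged to AT5G64110, at -0.58 (95% interval -0.92 to -0.24), and to AT1G49570, at 0.40 (0.15 to 0.65). Counting AT5G19890, the scl3-1 arrays lay wholly above ga1-3 for 3 genes (AT1G49570, AT4G11290 and AT5G19890), against 7.37% of all tested probe sets. They lay wholly below it for AT2G22420 and AT5G64110, against 6.68%. The median log2 change of the 36 genes was 0.03, beside 0.01 over all tested probe sets, and over all 43 genes it was also 0.03. The plot of every change with its 95% interval shows the contrast with SCL3 OE.

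**Figure D1:**
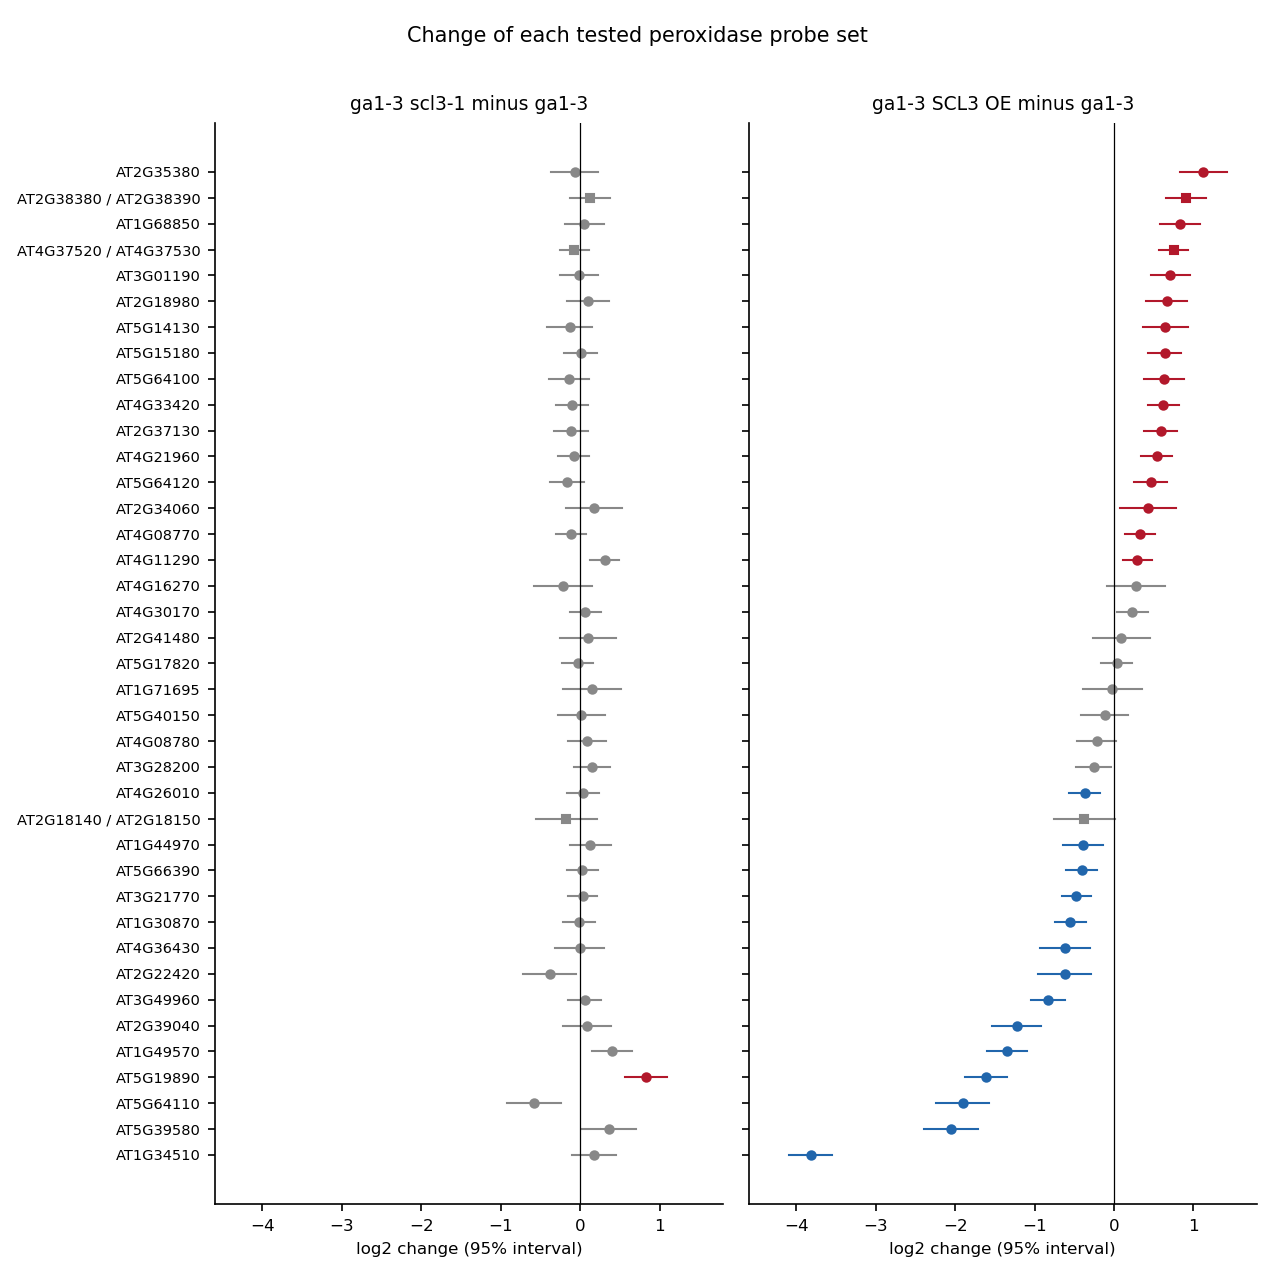
Log2 change (x axis) of each tested peroxidase probe set (y axis, by locus) in ga1-3 scl3-1 (left) and ga1-3 SCL3 OE (right), each minus ga1-3, with 95% intervals from the limma model; circles are probe sets of 1 gene and squares those shared by a pair. Red marks an adjusted p under 0.05 with a rise, blue a fall and grey no call. On the left only AT5G19890 is coloured, and on the right values run up to 1.12 (AT2G35380). The point of AT1G34510 on the right, at -3.82, rests on SCL3 OE signals under the filter level and is no measured size.

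In SCL3 OE members of the family changed in both directions. Of the 36 tested genes, 14 rose and 14 fell against ga1-3, and 8 did not pass. That is 77.8% called, 38.9% in each direction, where 43.8% of all tested probe sets were called, 18% higher and 25.9% lower. After quantile normalization, which gives all arrays the same distribution of signals, 9 rose and 15 fell, against 18.8% and 19.9% of all tested probe sets. The counts of called genes and of falls in this paragraph include AT1G34510, which is treated separately below. Because the members were chosen with earlier results of these data known, their shares beside those of all probe sets are descriptive only. An unadjusted p under 0.05 was found for 30 genes and for 51.2% of all probe sets. The arrays of the 2 groups did not overlap for any of the 28 called genes. Including 2 uncalled genes, SCL3 OE lay wholly above ga1-3 for 15 genes and wholly below it for 15, against 22.1% and 31.5% of all tested probe sets. At least 2-fold changes were mostly falls: 6 genes (16.7%) fell by that much against 3.24% of all probe sets, and 1 gene (2.78%) rose by that much against 2.22%. The median change was 0.01 (-0.07 over all tested probe sets), but the median size of change regardless of sign was 0.57 on the log2 scale, beside 0.28 over all.

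AT1G34510 had signals under the filter level on all SCL3 OE arrays. Signals were 1086, 942 and 881 in ga1-3, 961, 1162 and 1155 in scl3-1, and 79.2, 64.2 and 63.1 in SCL3 OE. All SCL3 OE arrays lay far below the other 6, which overlapped between groups. With SCL3 OE set at the filter level of its arrays, the gene was at least 9.34-fold lower than in ga1-3 and at least 10.5-fold lower than in scl3-1. It was tested only through the groups in which it is high, so no p is given for it. Without it, a count chosen after seeing the data, 14 of 35 genes rose and 13 fell, 5 of them (14.3% of the 35) at least 2-fold. AT5G39580, which is linked to root hair growth at low temperature, had signals of 427, 444 and 600 in ga1-3, 547, 657 and 671 in scl3-1, and 104, 146 and 105 in SCL3 OE. It fell 4.15-fold (log2 change -2.05, SE 0.16, adjusted p = 1.56e-07). With an offset of 50 added to signals before log2, the change was -1.68. SCL3 OE lay apart from both other groups, which overlapped. The signal of AT5G39580 reached the filter level on 8 of 9 arrays, so its level in SCL3 OE was near the dim end.

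AT5G64110 gave 414, 381 and 369 in ga1-3, 219, 328 and 243 in scl3-1, and 94.3, 97.3 and 121 in SCL3 OE. All 3 groups were apart, with scl3-1 between the others, and the fall in SCL3 OE was 3.75-fold (-1.91, SE 0.16, adjusted p = 2.88e-07). With the offset the change was -1.51. The signal of AT5G64110 reached the filter level on 7 of 9 arrays, so its level in SCL3 OE was near the dim end and the fold is uncertain. AT1G49570 had 419, 356 and 364 in ga1-3, 487, 536 and 477 in scl3-1, and 140, 145 and 161 in SCL3 OE, a 2.55-fold fall (-1.35, SE 0.12). Here, as for AT5G19890, the scl3-1 arrays were highest and the SCL3 OE arrays lowest, though for AT1G49570 the difference between scl3-1 and ga1-3 did not pass (adjusted p = 0.19). AT2G39040 went from 990, 897 and 742 in ga1-3 and 1037, 848 and 893 in scl3-1 to 377, 304 and 451 in SCL3 OE, 2.34 times lower than ga1-3 (-1.22, SE 0.14). The ga1-3 and scl3-1 arrays of that gene overlapped.

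Smaller falls, all under 2-fold, were called for 8 further genes. The next in size were AT3G49960 and AT2G22420. AT2G22420, linked to the formation of lignified tissue, had 197, 166 and 157 in ga1-3, 142, 124 and 131 in scl3-1, and 126, 105 and 107 in SCL3 OE. Its change against ga1-3 passed in SCL3 OE (-0.62, SE 0.16, adjusted p = 0.00494) and not in scl3-1 (-0.39, SE 0.16, adjusted p = 0.379), and the SCL3 OE and scl3-1 arrays overlapped. AT4G36430 fell by 0.62 (SE 0.15) and AT3G21770 by 0.47 (SE 0.08) on the log2 scale. The others belong to the root hair and endodermis groups below.

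**Figure D2:**
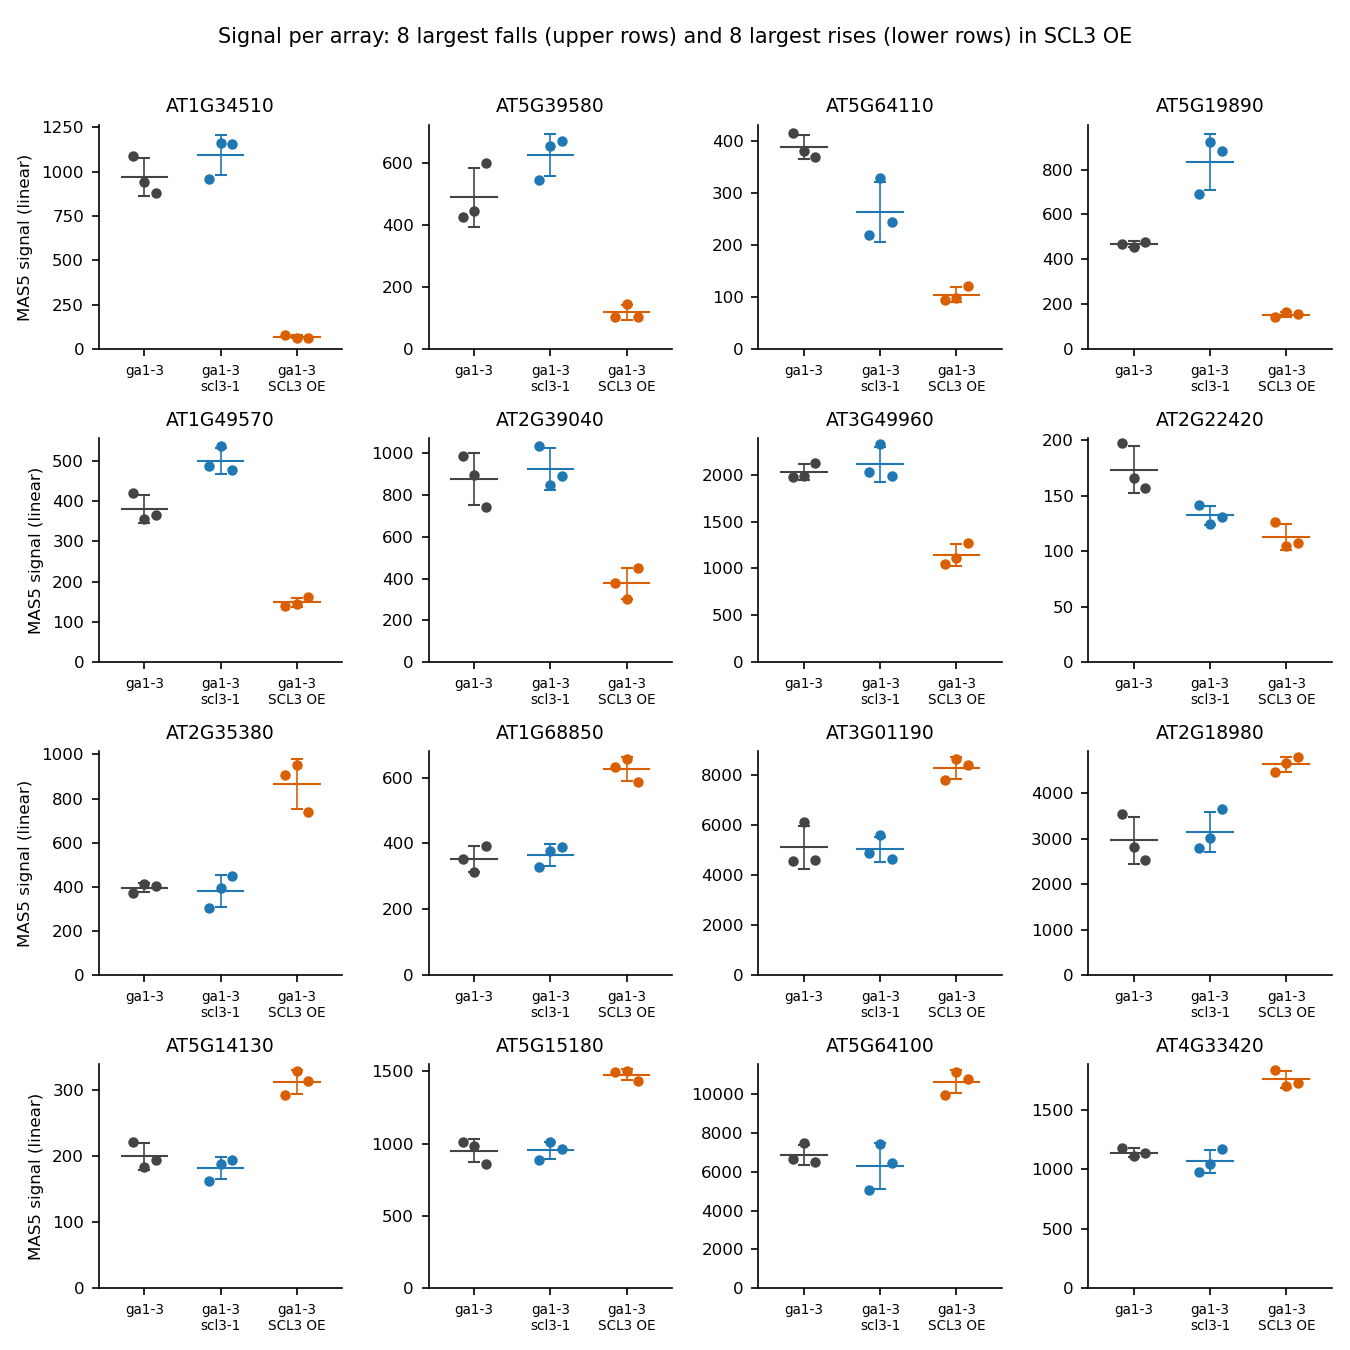
MAS5 signal on a linear axis (y) in the 3 groups (x) for the 8 genes with the largest falls (upper rows) and the 8 with the largest rises (lower rows) in SCL3 OE. Points are the 3 arrays, the long bar their mean and the error bar their SD; for all 16 genes the SCL3 OE arrays lie apart from the ga1-3 arrays, and for AT5G19890 scl3-1 is the highest group.

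Among the 14 genes that rose in SCL3 OE, 13 rose less than 2-fold. AT2G35380 rose most, with 374, 411 and 402 in ga1-3, 303, 393 and 447 in scl3-1, and 909, 954 and 739 in SCL3 OE. The rise was 2.18-fold (log2 change 1.12, SE 0.14, adjusted p = 1.48e-05), and ga1-3 and scl3-1 overlapped. AT1G68850 had 353, 312 and 393 in ga1-3, 328, 379 and 389 in scl3-1, and 634, 658 and 585 in SCL3 OE, 1.78-fold up (0.83, SE 0.12). AT5G14130 gave 222, 184 and 194, then 163, 188 and 195, and in SCL3 OE 293, 330 and 315 (0.65, SE 0.13). For each of these genes every SCL3 OE array exceeded the other 6.

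AT5G15180 was at 1008, 985 and 861 in ga1-3, 888, 1009 and 964 in scl3-1, and 1497, 1501 and 1432 in SCL3 OE (0.64, SE 0.10, adjusted p = 8.31e-05). AT4G33420 was at 1183, 1111 and 1135, at 982, 1049 and 1172, and in SCL3 OE at 1841, 1703 and 1730 (0.62, SE 0.09). Both thus rose about equally, and the scl3-1 mean of AT5G15180 was within 0.01 of ga1-3 on the log2 scale (95% interval -0.20 to 0.21). AT2G18980 rose from 3548, 2817 and 2531 in ga1-3 to 4468, 4670 and 4798 in SCL3 OE (0.66, SE 0.12), with 2792, 3030 and 3651 in scl3-1. After quantile normalization this rise was 0.45 (adjusted p = 0.0194), and the call of AT2G18980 against scl3-1 ended (0.34, adjusted p = 0.0732). Prx37 (AT4G08770), whose overexpression is known to limit growth, rose by 0.33 (SE 0.09), AT4G11290 by 0.29 (SE 0.08) and AT2G34060 by 0.43 (SE 0.17, adjusted p = 0.0467). AT2G34060, with signals of 97.9 to 162, lost its call when any 1 array other than ga1-3 replicate 2 was left out (adjusted p 0.0526 to 0.17).

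The remaining 5 rises were of bright genes and depended on the scaling. AT4G21960 (PRXR1) had 9967, 11476 and 11186 in ga1-3, 11074, 10493 and 9237 in scl3-1, and 15406, 15331 and 16622 in SCL3 OE, a rise of 0.54 (SE 0.09, adjusted p = 0.000266). AT5G64120 (PRX71), which is known to restrain growth by acting on the cell wall, had 8345, 9825 and 9337, then 7530, 9162 and 7878, and in SCL3 OE 11564, 13066 and 13217 (0.46, SE 0.10). AT2G37130 had 7421, 8315 and 8609, then 7161, 8294 and 7028, and 11101, 12223 and 13317 in SCL3 OE (0.59, SE 0.10). With the deposited scaling, SCL3 OE stood above both other groups for each of these genes.

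AT3G01190 had 4582, 6112 and 4620 in ga1-3, 4865, 5595 and 4636 in scl3-1, and 7794, 8653 and 8408 in SCL3 OE (0.71, SE 0.11). AT5G64100, like AT5G39580 linked to root hair growth at low temperature, had 6652, 7454 and 6492, then 5030, 7405 and 6442, and 9965, 11109 and 10782 in SCL3 OE (0.63, SE 0.12). After quantile normalization none of these 5 genes was called. Their log2 changes became -0.10 for AT4G21960, -0.14 for AT5G64120, 0.024 for AT2G37130, 0.26 for AT3G01190 and 0.10 for AT5G64100 (adjusted p 0.0621 to 0.84).

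Bright probe sets showed the same pattern over the whole array. Of the 664 tested probe sets with a mean signal of 4000 or more over all arrays, 72.7% rose in SCL3 OE and 3.01% fell, with a median of 0.46. The 8 peroxidase genes among them had 5 rises, 1 fall (AT4G26010) and a median of 0.50, and these rises are near that background. After quantile normalization the median of the 664 was -0.0015, with 19.7% higher and 18.5% lower, and of the 8 genes 0 rose and 3 fell (AT4G26010, AT4G30170 and AT5G17820). Among the 3010 probe sets of 1000 to 4000, 22% rose and 25.2% fell, and of 9 peroxidase genes 5 rose and 4 fell under either scaling. Among the 7637 of 200 to 1000, 12.9% rose and 30.6% fell. Of 15 peroxidase genes there 3 rose and 8 fell (7 after quantile normalization), with AT1G34510 among the falls. Below 200, where 14.5% rose and 19.2% fell, 4 peroxidase genes gave 1 rise and 1 fall. In all, 9 of the 14 rises and 13 of the 14 falls, AT1G34510 included, were called under both scalings. AT4G30170 and AT5G17820 were called lower after quantile normalization and not with the deposited scaling. How far the brighter upper end of the SCL3 OE arrays contributed to the 5 other rises was not tested.

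**Figure D3:**
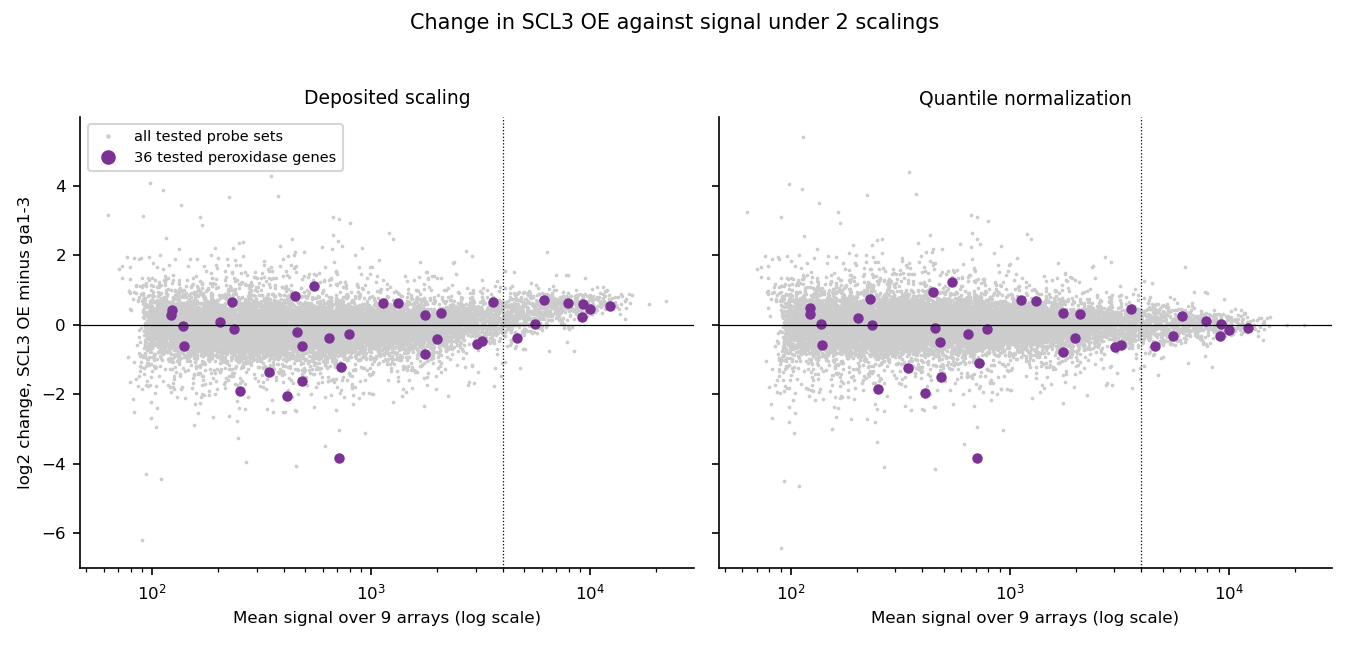
Log2 change in SCL3 OE minus ga1-3 (y axis) against mean signal over 9 arrays (x axis, log scale), with the deposited scaling (left) and after quantile normalization (right). Grey points are all 14117 tested probe sets, purple points the 36 peroxidase genes, and the dotted line a signal of 4000; to its right most grey points lie above 0 on the left (median 0.46) and around 0 on the right (median -0.0015).

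Next come the genes linked to root hairs. Of 8 listed, 5 were tested, of which 4 fell and AT5G64100 rose (not after quantile normalization), where 25.9% of all tested probe sets fell and 18% rose. AT3G49960, a gene expressed in root hairs, had 1978, 1987 and 2125 in ga1-3, 2024, 2326 and 1986 in scl3-1, and 1044, 1116 and 1267 in SCL3 OE. It fell 1.78-fold (-0.83, SE 0.10, adjusted p = 9.67e-06), with ga1-3 and scl3-1 overlapping. AT1G30870 had 3154, 3532 and 3532 in ga1-3, 3650, 3500 and 2989 in scl3-1, and 2309, 2311 and 2352 in SCL3 OE (-0.55, SE 0.09). AT4G26010, which is needed for full root hair growth, had 4749, 5098 and 4991, then 5631, 4982 and 4653, and 3624, 4175 and 3705 in SCL3 OE (-0.37, SE 0.09). Neither gene's SCL3 OE arrays overlapped with those of the other groups. After quantile normalization AT4G26010 stood at -0.60 and AT1G30870 at -0.63, so these falls did not shrink.

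The root hair cell markers that were measured (EXPA7, EXPA18 and XTH26, 3 of 6) were lower in SCL3 OE, as were 4 of the 5 genes above but not AT5G64100. The summed signal of the 3 markers was 2743 to 3258 on the ga1-3 arrays, 3036 to 3446 with scl3-1 and 1563 to 1664 with SCL3 OE, and none was at 0. EXPA7 and EXPA18 fell in SCL3 OE, with log2 changes of -0.37 and -0.91. XTH26 had signals of 14.5 to 34.6 on the SCL3 OE arrays, under the filter level, and a mean of 362 in ga1-3, which makes it at least 3.47-fold lower. None of the 3 was called in scl3-1. EXPA7 did not pass under quantile scaling (-0.26, adjusted p = 0.103). The cortex markers AT1G09750 and AT1G62500 fell too, from a summed 1590 to 1677 in ga1-3 to 770 to 816 in SCL3 OE. In whole roots, fewer cells of a type and less RNA per cell cannot be told apart, and the part of cell type shares in the changes of the peroxidase genes was not tested.

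Of 5 peroxidase genes that act together in Casparian strip lignin, 3 were measured, and they went both ways in SCL3 OE. Over all tested probe sets 25.9% fell and 18% rose. AT5G66390 (PRX72) had 2220, 2240 and 2024 in ga1-3, 2131, 2381 and 2101 in scl3-1, and 1700, 1655 and 1537 in SCL3 OE, a fall of 0.41 on the log2 scale (SE 0.09, adjusted p = 0.00202). AT1G44970 had 690, 722 and 616, then 656, 839 and 727, and 491, 587 and 472 in SCL3 OE (-0.39, SE 0.12, adjusted p = 0.0158). The call of AT1G44970 ended under quantile normalization (-0.26, adjusted p = 0.0969). It also ended when ga1-3 replicate 2 was left out (adjusted p = 0.0628), and likewise for replicate 1 (0.0605) and replicate 3 (0.0742) of SCL3 OE. AT4G11290 was higher on every scl3-1 array (1855, 1995 and 1805) and every SCL3 OE array (1857, 1901 and 1828) than in ga1-3 (1460, 1565 and 1538). That was called in SCL3 OE (0.29, SE 0.08, adjusted p = 0.0114) and not in scl3-1 (0.31, SE 0.08, adjusted p = 0.144), and the 2 groups differed by -0.02 (95% interval -0.20 to 0.16). Of 9 other Casparian strip genes, 2 were tested: SGN1, a receptor-like kinase gene, fell by 0.94 (SE 0.11) in SCL3 OE, and the receptor kinase gene GSO1 did not pass (0.31, SE 0.15), though it did after quantile normalization (0.44, adjusted p = 0.032).

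AT4G11290 is also 1 of 3 peroxidase genes known as targets that UPB1 represses. UPB1 itself had 681, 509 and 460 in ga1-3, 532, 440 and 513 in scl3-1, and 260, 186 and 245 in SCL3 OE. It fell by 1.25 on the log2 scale in SCL3 OE (SE 0.16, adjusted p = 1.62e-05; -1.13 after quantile normalization) and did not pass in scl3-1. Of its targets AT4G11290 was called, as given above, and AT4G16270 and AT5G17820 were not, where 43.8% of all tested probe sets were called. AT4G16270 had 121, 106 and 131 in ga1-3, 104, 109 and 93.9 in scl3-1, and 153, 163 and 120 in SCL3 OE, which overlapped with ga1-3 (0.27, 95% interval -0.09 to 0.64, adjusted p = 0.211). AT5G17820 had 4912, 5825 and 6020, then 5423, 5613 and 5277, and 5340, 5987 and 5768 in SCL3 OE (0.03, 95% interval -0.17 to 0.23). For AT5G17820, a bright gene, the change was -0.32 after quantile normalization (adjusted p = 0.0059), so its direction depends on the scaling.

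**Figure D4:**
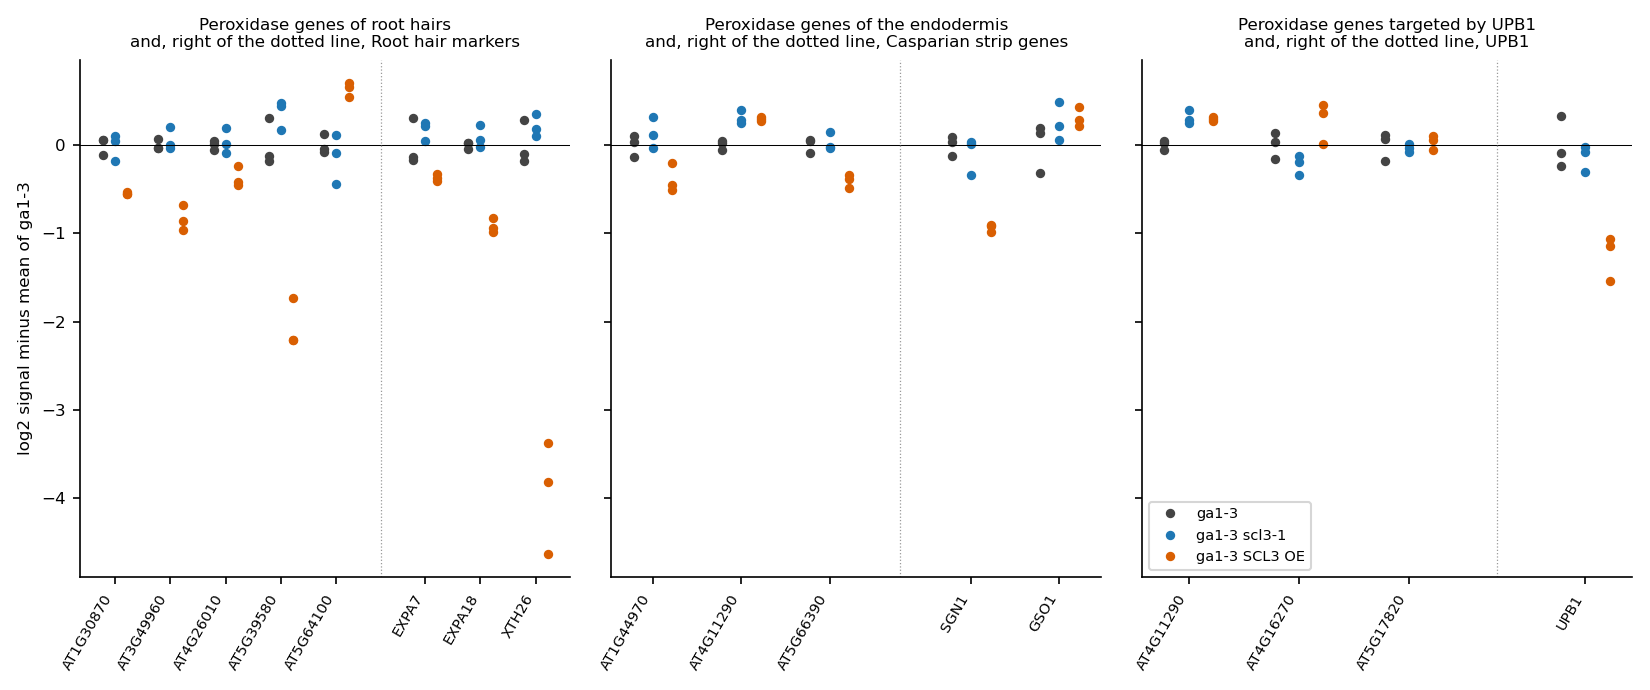
Log2 signal of each array minus the ga1-3 mean (y axis) for peroxidase genes grouped by known role (x axis, left of each dotted line) and for related genes (right of it): root hair markers, Casparian strip genes and UPB1. Points are single arrays with the deposited scaling, coloured by group. AT5G39580 (-2.05 on average in SCL3 OE) and UPB1 (-1.25) lie well below ga1-3. XTH26 lies lower still at signals under the filter level, so its distance is no measured size. The 3 UPB1 targets lie at or above ga1-3 on average in SCL3 OE with this scaling. After quantile normalization, not shown, AT5G17820 was lower (-0.32).

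Genes linked to lignin formation, a list that shares AT5G66390 with the Casparian strip genes, went both ways. Of 7 listed, 4 were tested: AT2G22420 and AT5G66390 fell, AT5G64120 rose (not after quantile normalization), and PRX25 (AT2G41480), a gene of stem lignin, did not pass. Over all tested probe sets 25.9% fell and 18% rose, and a list this short cannot be told apart from those shares. PRX25 had 186, 214 and 180 in ga1-3, 157, 247 and 225 in scl3-1, and 225, 208 and 185 in SCL3 OE (0.09, 95% interval -0.26 to 0.45). PRX52 was among the dim genes, with 28.5, 22.6 and 19.1 in ga1-3, 28.7, 1.58 and 20.7 in scl3-1 and 11.4, 1.2 and 3.08 in SCL3 OE. Both genes assigned to the oxidative burst of immunity, PRXCA and PRXCB, were among the 11 without a named probe set.

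Pathways that supply or compete for the enzymes' substrates were thinly covered: of 64 listed genes 8 were on a probe set of their own and 5 were tested, 0 of them called in scl3-1. In SCL3 OE 3 rose and 0 fell, where 18% of all tested probe sets rose and 25.9% fell. With the Casparian strip list and UPB1 added, 8 genes were tested, of which 3 rose and 2 fell (SGN1 and UPB1). Those that rose were RBOHE (0.57, SE 0.17) and RBOHG (0.32, SE 0.11), which encode NADPH oxidases that make superoxide, and SAPX (0.31, SE 0.10), an ascorbate peroxidase gene. The rise of SAPX was not called under quantile scaling (0.14, adjusted p = 0.276). SGN1, RBOHE, RBOHG and SAPX, as well as GSO1, HCT and CCR2, lie outside the rule for naming genes and were singled out after their values were seen. HCT (0.11, SE 0.09) and CCR2 (0.28, SE 0.17), of monolignol synthesis, did not pass. None of the listed superoxide dismutase or catalase genes was on a named probe set of its own, and LAC16, the 1 laccase gene of 17 that was, lay under the filter, as did RBOHI and TAPX.

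Few of the listed neighbouring pairs had both genes tested on probe sets of their own. The changes in SCL3 OE against ga1-3 differed within those pairs, and the differences between neighbours were not tested. AT5G64100, AT5G64110 and AT5G64120 follow each other with 0 protein-coding genes between them in the gene table. The middle gene fell (-1.91, with SCL3 OE signals near the filter level). Its neighbours changed by 0.63 and 0.46, or 0.10 and -0.14 after quantile normalization. In the adjacent pair AT4G08770 and AT4G08780, the first rose (0.33) and the second did not pass (-0.22, 95% interval -0.46 to 0.02), and on the SCL3 OE arrays AT4G08780 had 408, 386 and 414 against 532, 456 and 423 in ga1-3. For 3 pairs 1 probe set serves both genes, so their values cannot be divided. The probe set of AT2G38380 and AT2G38390 rose by 0.91 (SE 0.12; 0.46 after quantile normalization), from 4860, 4985 and 3872 in ga1-3 to 7740, 8995 and 8938. That of AT4G37520 and AT4G37530 rose by 0.75 (SE 0.09), from 2298, 2431 and 2437 to 4345, 4064 and 3693. That of AT2G18140 and AT2G18150 did not pass (-0.37, SE 0.18, adjusted p = 0.107).

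Direct comparison of the lines, SCL3 OE against scl3-1, gave 13 higher and 15 lower genes of 36, where 39.2% of all tested probe sets were called, 15.5% higher and 23.6% lower. Without AT1G34510, 13 of 35 genes were higher and 14 lower. SCL3 OE lay wholly above scl3-1 for 15 genes, against 21.3% of all, and wholly below it for 15, against 31.5%. After quantile normalization 7 genes were higher and 15 lower, against 16.4% and 17% of all probe sets. It uses the same SCL3 OE arrays as the comparison with ga1-3. Values not given above include those of AT3G28200, which had 933, 843 and 897 in scl3-1 and 659, 733 and 633 in SCL3 OE. It was lower by this comparison (-0.40, SE 0.11, adjusted p = 0.00718) and did not pass against ga1-3 (-0.26, SE 0.11, adjusted p = 0.0609). AT4G16270 was higher (0.49, SE 0.17, adjusted p = 0.0326) and AT4G08780 lower (-0.30, SE 0.11, adjusted p = 0.046). The call of AT4G16270 ended without replicate 1 or 3 of scl3-1 or replicate 1 or 2 of SCL3 OE (adjusted p 0.0563 to 0.126). That of AT4G08780 ended without ga1-3 replicate 2, replicate 1 or 3 of scl3-1 or any replicate of SCL3 OE (0.0542 to 0.159), and under quantile normalization (0.261). The call of AT3G28200 also ended under quantile normalization (-0.28, adjusted p = 0.0544), whereas without ga1-3 replicate 2 its fall against ga1-3 passed (adjusted p = 0.0333). AT2G22420 (-0.23, 95% interval -0.57 to 0.10) and AT2G34060 (0.26, -0.09 to 0.61) did not pass between the lines. The 6 genes that fell at least 2-fold against ga1-3, AT1G34510 included, were also at least 2-fold lower than in scl3-1. They had been picked for low signal on these same SCL3 OE arrays, so this is no separate evidence. Over all tested probe sets, not picked in that way, 3.46% were at least 2-fold lower. Without AT1G34510 the picked genes ran from -1.31 for AT2G39040 to -2.44 for AT5G19890. AT1G71695, AT5G40150, PRX25, AT5G17820 and AT4G30170 were called in none of the 3 comparisons with the deposited scaling. AT4G30170 had 8111, 9322 and 8219 in ga1-3 and 9934, 9922 and 10192 in SCL3 OE (0.23, SE 0.09, adjusted p = 0.0569). It was called higher with arrays centred on their medians (0.31, adjusted p = 0.022), in a fit of the 6 arrays compared (0.0469), and without ga1-3 replicate 2 (0.0272) or scl3-1 replicate 1 (0.0318). It was called lower after quantile normalization (-0.33, adjusted p = 0.0142). Against scl3-1 it likewise changed by 0.29 with median-centred arrays (adjusted p = 0.0371) and by -0.43 after quantile normalization (adjusted p = 0.00307).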

How the data were processed

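The 9 arrays held MAS5 signal intensities per probe set, made by the authors in Affymetrix Expression Console 1.1 per the submitters' processing notes. The deposited values are linear, and the 2% trimmed mean was 496 to 497 on every array, so a common scaling had been applied. No detection calls were used here. Signals were taken to log2 and fitted with limma 3.58.1 in R 4.3.3 (group means, eBayes with trend, 6 residual and 9.37 prior degrees of freedom). Tests were two-sided, with Benjamini-Hochberg adjustment over all 14117 tested probe sets. Genes were named by the probe table and the TAIR10.1 gene table. Every array value is given for genes called in scl3-1, the 8 largest falls and rises in SCL3 OE, the 3 brightest genes and all tested genes with a listed role. A few further genes were named after their values were seen. Members, roles and lists were chosen with earlier results of these data known. The labels call the replicates biological, and same-numbered arrays did not deviate together (r -0.19 to 0.18). The fit was run on simulated data with known changes as a check. Alternatives comprised other filters, scalings, offsets, eBayes settings, weights, a replicate block, 6-array fits, an adjusted p under 0.1 and each array left out. The planned protein and promoter features were not analysed here. The number of arrays limits the precision.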

Additional observations from a re-analysis of the deposited data

How the results depend on the processing

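Quantile normalization left 9 higher genes in SCL3 OE against ga1-3 in place of 14, and 7 in place of 13 against scl3-1. The sign against ga1-3 turned for 5 genes: AT4G21960 (-0.10), AT5G64120 (-0.14), AT4G30170 (-0.33), AT5G17820 (-0.32) and AT1G71695 (0.034). Against scl3-1 the sign turned for 6: AT4G21960 (-0.044), AT4G30170 (-0.43), AT5G17820 (-0.31), PRX25 (0.12), AT4G11290 (0.011) and AT5G40150 (0.012). With a filter at the 60th percentile, which tests fewer genes, the median log2 change in SCL3 OE was -0.22 against ga1-3 and -0.30 against scl3-1. Leaving out each array in turn gave 0 to 1 higher genes in scl3-1, 13 to 15 higher and 13 to 14 lower in SCL3 OE against ga1-3, and 12 to 13 higher and 14 to 15 lower against scl3-1. AT1G34510 is counted among these lower genes. With a replicate block there were 14 higher and 14 lower genes against ga1-3 and 13 and 14 against scl3-1, where AT4G08780 lost its call (adjusted p = 0.0503), and no other call of a peroxidase gene changed. Same-numbered arrays share only a number. Every tested gene had 1 probe set, so the planned change of probe set could not be made. No detection calls were used, so signals near or under 105.9 carry little information on size.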
